A study of Mus musculus with 21 samples.

Results

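The MHC class I and immunoproteasome genes described here are H2-K1, H2-D1, B2m, Tap1, Tap2, Tapbp, Psmb8, Psmb9, Psmb10 and Nlrc5. They were chosen by symbol, with earlier results of these data known. All 10 were found among the 23250 genes of the deposited table and passed the filter on low counts. RNA was sequenced from macrophages grown from C57BL/6J-background mouse bone marrow for 7 days in medium with 2.5% supernatant of cells that secrete GM-CSF. The series describes the cells, controls included, as lacking the mannose receptor, which Mrc1 encodes, and the age of the mice is not given in the sources used here. One group was left untreated (0 h). The other 6 received either FcMR, which joins the extracellular part of the mannose receptor to a human IgG1 Fc, or an isotype control for 4, 12 or 24 h, at a dose that is not given in the sources used here. Each of the 7 groups held 3 libraries. The sources used here do not say whether these came from separate mice or cultures, so p-values measure only the spread between libraries, which may be technical. FcMR against isotype asks what the soluble receptor adds. Isotype against untreated shows what time and the control protein do together, which cannot be told apart.

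Class I molecules display peptides from inside the cell to CD8+ T cells and natural killer cells. Proteasomes cut proteins into peptides, and Psmb8, Psmb9 and Psmb10 encode the catalytic subunits that replace Psmb5, Psmb6 and Psmb7 of the constitutive particle to form the immunoproteasome. Tap1 and Tap2 form the pump that carries peptides into the endoplasmic reticulum, where tapasin (Tapbp) holds the empty heavy chain at the pump. H2-K1 and H2-D1 encode the classical heavy chains, B2m encodes the light chain they share, and NLRC5 is a transactivator of class I genes. In macrophages these genes are known to respond to interferons.

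The promoter sequences of H2-K1 and B2m are shown because heavy and light chain are induced together in many cells through short shared elements. RefSeq windows of 300 bases (GRCm38.p6), from 250 before to 50 after the start, were held for 8 of the 10 genes, all but Tap2 and Nlrc5. Motifs were searched on both strands. Capitals mark an NF-kB-like run (GGG, then any 5 bases, then CC), interferon-response-like runs (GAA or GAAA, any 2 bases, then GAAA), TGACG and CCAAT. TTTCACTTC is such an interferon-response-like run read from the other strand, and ATTGG is CCAAT. H2-K1 is read from chr17:34000358-34000477 on the minus strand (-130 to -11 from the start) and B2m from chr2:122147542-122147641 on the plus strand (ending at -46).
H2-K1: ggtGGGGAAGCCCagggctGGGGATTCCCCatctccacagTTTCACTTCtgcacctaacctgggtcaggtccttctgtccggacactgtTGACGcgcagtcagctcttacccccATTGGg
B2m: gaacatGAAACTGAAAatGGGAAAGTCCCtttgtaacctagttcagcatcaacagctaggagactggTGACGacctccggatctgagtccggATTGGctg
In both genes an NF-kB-like run, an interferon-response-like run, TGACG and ATTGG lie in 1 compact stretch. In B2m the interferon-response-like run comes first, and in H2-K1 the NF-kB-like run does. The same stretch of H2-D1 shares 109 of 120 letters with that of H2-K1 (90.8%) and is not printed because an annotated transcript places it in its untranslated first exon.

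The run GGGGATTCCCC, which overlaps the NF-kB-like motif, occurred in 6 of 27025 RefSeq promoter windows (0.0222%), among them H2-K1, H2-D1 and the class I gene H2-Q6. The shorter runs are common. The NF-kB-like motif was in 50.4% of all windows and in 5 of 8 member windows, CCAAT in 37.9% and in 6 of 8, and TGACG in 21% and in 5 of 8 (H2-K1, H2-D1, B2m, Tap1 and Psmb9). The interferon-response-like motif with GAA first was in 7.56% of windows and in 2 of 8, and that with GAAA first in 3.49% and in 1 of 8 (B2m). TTCNNNGAA was in 8.47% of windows and in 1 of 8 (Psmb8), and TGACGTCA, which contains TGACG, in 1.88% and in 0 of 8. The run GGGGATTCCCC, the motif with GAA first and both 5-letter motifs were chosen after the windows had been read. Such matches describe letters and not bound sites. Tap1 and Psmb9 start 226 bases apart on opposite strands, so their windows overlap. For both 5-letter motifs and the NF-kB-like motif, the matches of Tap1 and Psmb9 are the same sites in the shared part. The member counts of these motifs include both genes, so they overstate the number of separate matches. Psmb10 and Nlrc5 lie on chromosome 8, B2m on chromosome 2 and the other 7 genes on chromosome 17.

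Library totals ran from 5532225 to 66729533 counts, and Mrc1 held at most 11 counts in a library. Scaled to a common library total (CPM), it was highest in isotype 24 h replicate 1, where 6 counts were 0.628 CPM (95% exact Clopper-Pearson interval 0.23 to 1.37, for counting error only). Summed macrophage markers reached 20540 to 35370 CPM in all groups, and at 24 h were lower with FcMR (25900 to 27940 CPM) than with isotype (31180 to 35370 CPM). Dendritic cell markers were at 1341 to 1851 CPM. They were higher with FcMR than with isotype at 4 h (1641 to 1806 against 1442 to 1513 CPM) and 24 h (1570 to 1658 against 1390 to 1534 CPM) and overlapped at 12 h. T, B and NK cell markers reached 11.5 to 40.8 CPM. Neutrophil and precursor markers were at 1319 to 1546 CPM in untreated and 173 to 224 CPM in the 24 h libraries, and the part of this in the changes over time below was not tested. At 24 h they were slightly higher with FcMR (203 to 224 CPM) than with isotype (173 to 202 CPM), and the groups overlapped at 4 and 12 h. Fibroblast markers were at 7.83 to 16.8 CPM with FcMR and 0.322 to 2.83 CPM with isotype at 12 and 24 h, and at 4.6 to 6.24 and 2.59 to 3.97 CPM at 4 h, with Col1a2 at or under 3 counts in every library. The part of the macrophage, dendritic cell, neutrophil and fibroblast marker lists in the FcMR differences was not tested. In bulk RNA, fewer cells of a type and less RNA per cell cannot be told apart. The libraries differed in GC tilt, which is the mean log2 level of the GC-richest 10% of genes minus that of the poorest 10%, each gene taken against its mean over all libraries. The tilt ran from -1.64 to 0.84 over all libraries and from -1.64 to 0.66 among the isotype libraries of 4 h. In addition, isotype 4 h replicate 3 and FcMR 12 h replicate 1 stand in each other's place in the order of the title numbers. Their tilts, 0.66 and -0.73, were like those of the neighbours in that order (FcMR 12 h replicates 2 and 3 at 0.74 and 0.83, isotype 4 h replicates 1 and 2 at -0.85 and -1.64) and unlike those of their own groups. B2m, by contrast, was at 3503 and 5067 CPM in these 2 libraries, each near its labelled group. Its other libraries were at 3033 and 3446 CPM for isotype 4 h and 4734 and 4985 CPM for FcMR 12 h. Nlrc5 was at 161 and 175 CPM. Its other libraries, at 172 and 132 CPM and at 178 and 170.5 CPM, lie too close for Nlrc5 to tell these 2 groups apart. Whether the labels of the 2 libraries were exchanged was not tested. Results are therefore given as deposited, with a correction that removes each library's trend over all genes against transcript GC content, and without these 2 libraries.

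Member transcripts are GC-rich, from 52.4% (Nlrc5) to 58.4% (Tapbp), except B2m at 41.2%. Psmb8 was highest in the library of highest tilt in 7 of 7 groups, and Tapbp was lowest in the library of lowest tilt in 7 of 7. For Psmb10 these counts were 5 and 6 of 7 groups. B2m showed them in 2 and 1 of 7 groups and Nlrc5 in 2 and 3. After the GC correction the highest level lay in the library of highest tilt in 6 of 7 groups for Psmb8, and in 5 for H2-D1 and B2m. That count was 4 for Tap2, Psmb9 and Psmb10, 3 for H2-K1, and 2 for Tap1, Tapbp and Nlrc5. The correction thus follows the trend over all genes and can leave or add tilt in single members.

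**Figure D1:**
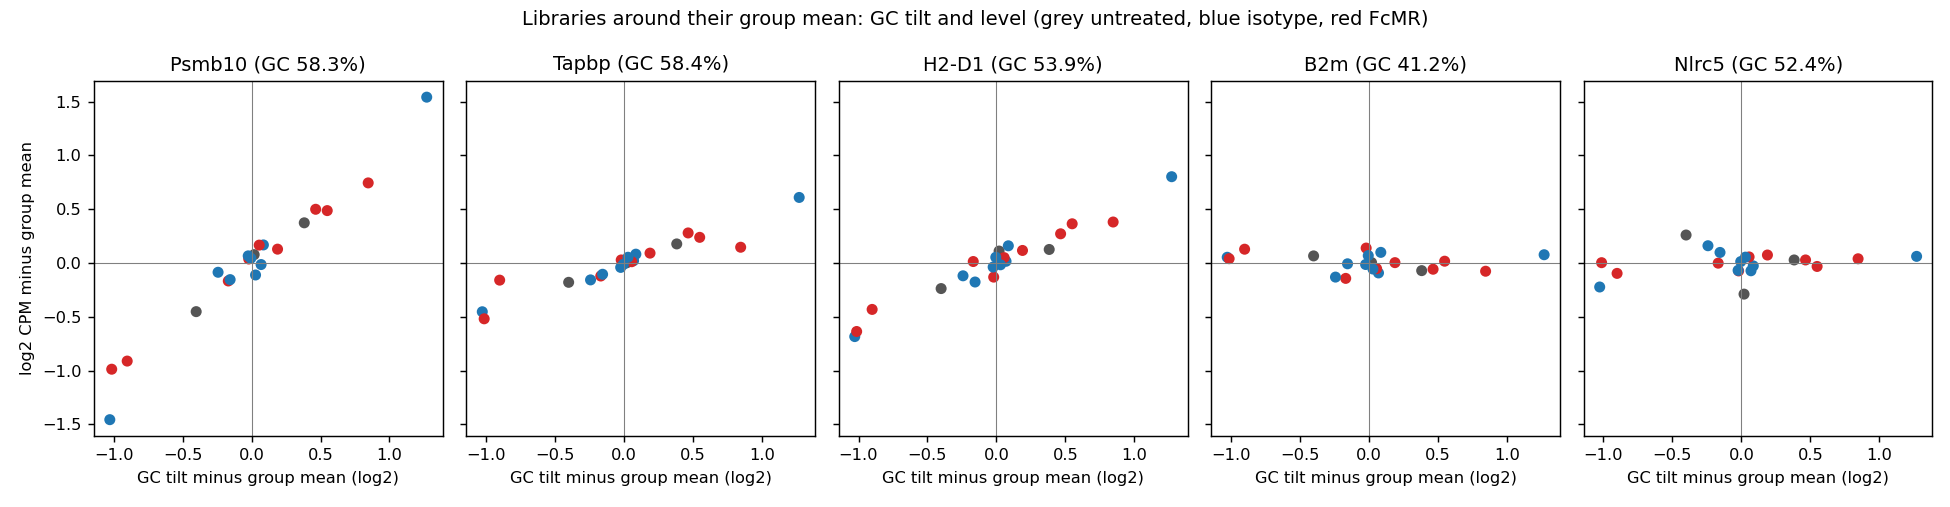
Each point is 1 of 21 libraries; the x axis is its GC tilt and the y axis its log2 CPM of the named gene, both minus the group mean (log2 units). Psmb10, Tapbp and H2-D1 climb from lower left to upper right, while B2m and Nlrc5 stay near 0 on the y axis.

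All 10 genes were higher in isotype-treated than in untreated cells at 12 h, by 0.84 (H2-D1) to 2.87 (Nlrc5) on the log2 scale (edgeR, Benjamini-Hochberg adjusted p = 0.0312 to 4.41e-12). Over all genes tested, 22% were called higher in that comparison, and the median change was 1.66 for the 10 genes and 0.03 for all genes. At 4 h 5 of 10 were called higher (20.4% of all genes), with medians of 0.77 and 0. At 24 h 5 of 10 were called higher (21.3% of all genes), with medians of 0.64 and -0.04, and none of the 10 was called lower at any time. Every isotype library lay above every untreated library for 5, 10 and 8 of the 10 genes at 4, 12 and 24 h (23.8%, 32.5% and 29.9% of all genes). With the GC correction the called counts were 9, 10 and 8 of 10 at 4, 12 and 24 h, against 23.8%, 28.1% and 25.8% of all genes. At 4 h, leaving out isotype 4 h replicate 2 added calls of H2-K1 and Psmb8 (adjusted p = 0.0358 and 0.0231). The 12 h calls of H2-D1 and Tap2 rest on few libraries. H2-D1 lost its call when untreated replicate 1, 2 or 3 or isotype 12 h replicate 2 or 3 was left out (adjusted p = 0.052 to 0.114), and Tap2 without untreated replicate 2 or 3 or isotype 12 h replicate 2 or 3 (0.0611 to 0.128).

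**Figure D2:**
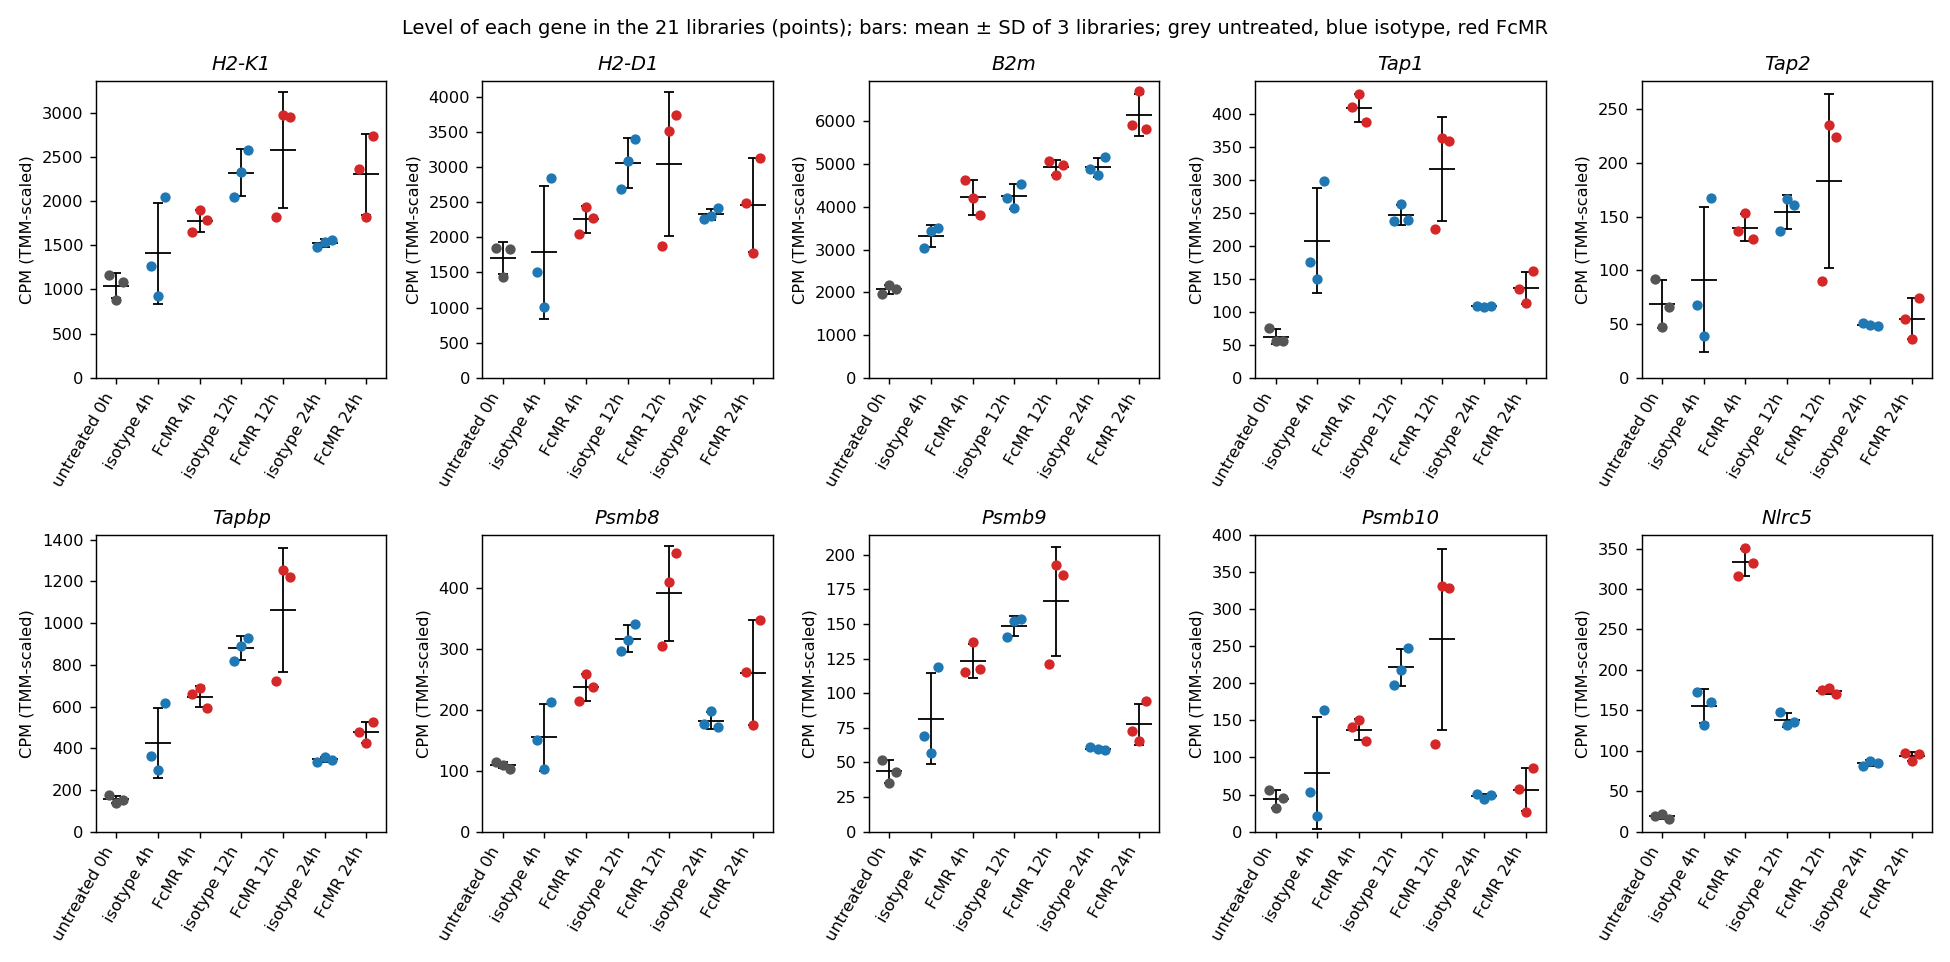
Level of each of the 10 genes in every library (points, CPM after TMM scaling) by group, with the mean ± SD of 3 libraries. Nlrc5 and Tap1 peaked at 4 h with FcMR, B2m climbed to 24 h with FcMR, and the other genes had their highest group means at 12 h.

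FcMR-treated cells held more Nlrc5, Tap1 and B2m RNA than isotype-treated cells at 4 h, and more B2m at 24 h. As deposited, 3 of 10 genes were called higher with FcMR at 4 h (8.62% of all genes called higher), 0 of 10 at 12 h (8.61%) and 1 of 10 at 24 h (11.4%). At 12 h 2 of 10, B2m and Nlrc5, passed an unadjusted threshold of 0.05 in edgeR, and DESeq2 called 2 of 10 there. The fold changes themselves were above 0 for 10, 9 and 10 genes at 4, 12 and 24 h, with medians of 0.61, 0.24 and 0.32 against -0.07, -0.02 and 0.01 over all genes. Every FcMR library lay above every isotype library for 4, 2 and 5 of the 10 genes (13.5%, 17.5% and 17.8% of all genes), and on GC-adjusted values for 7, 6 and 8 (17.6%, 20.2% and 23.8%). With the GC correction 9, 5 and 5 of 10 were called higher (14.1%, 13.2% and 17.5% of all genes). Without the 2 libraries out of title order, and with no GC correction, the counts were 10, 2 and 5 of 10, against 15.2% of all genes called higher at 4 h. Genes called in either direction over the whole table also rose in that setting, from 2390 to 3898 at 4 h. Leaving out isotype 4 h replicate 3 alone also gave 10 of 10 at 4 h. The 24 h count was 0 without isotype 24 h replicate 2, and without FcMR 24 h replicate 2 it was 2, H2-K1 and Psmb8 (adjusted p = 0.0424 and 0.0218). Counts above that have no share of all genes beside them are not read as a result about the members. The FcMR comparisons share the isotype libraries with the comparisons against untreated cells.

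**Figure D3:**
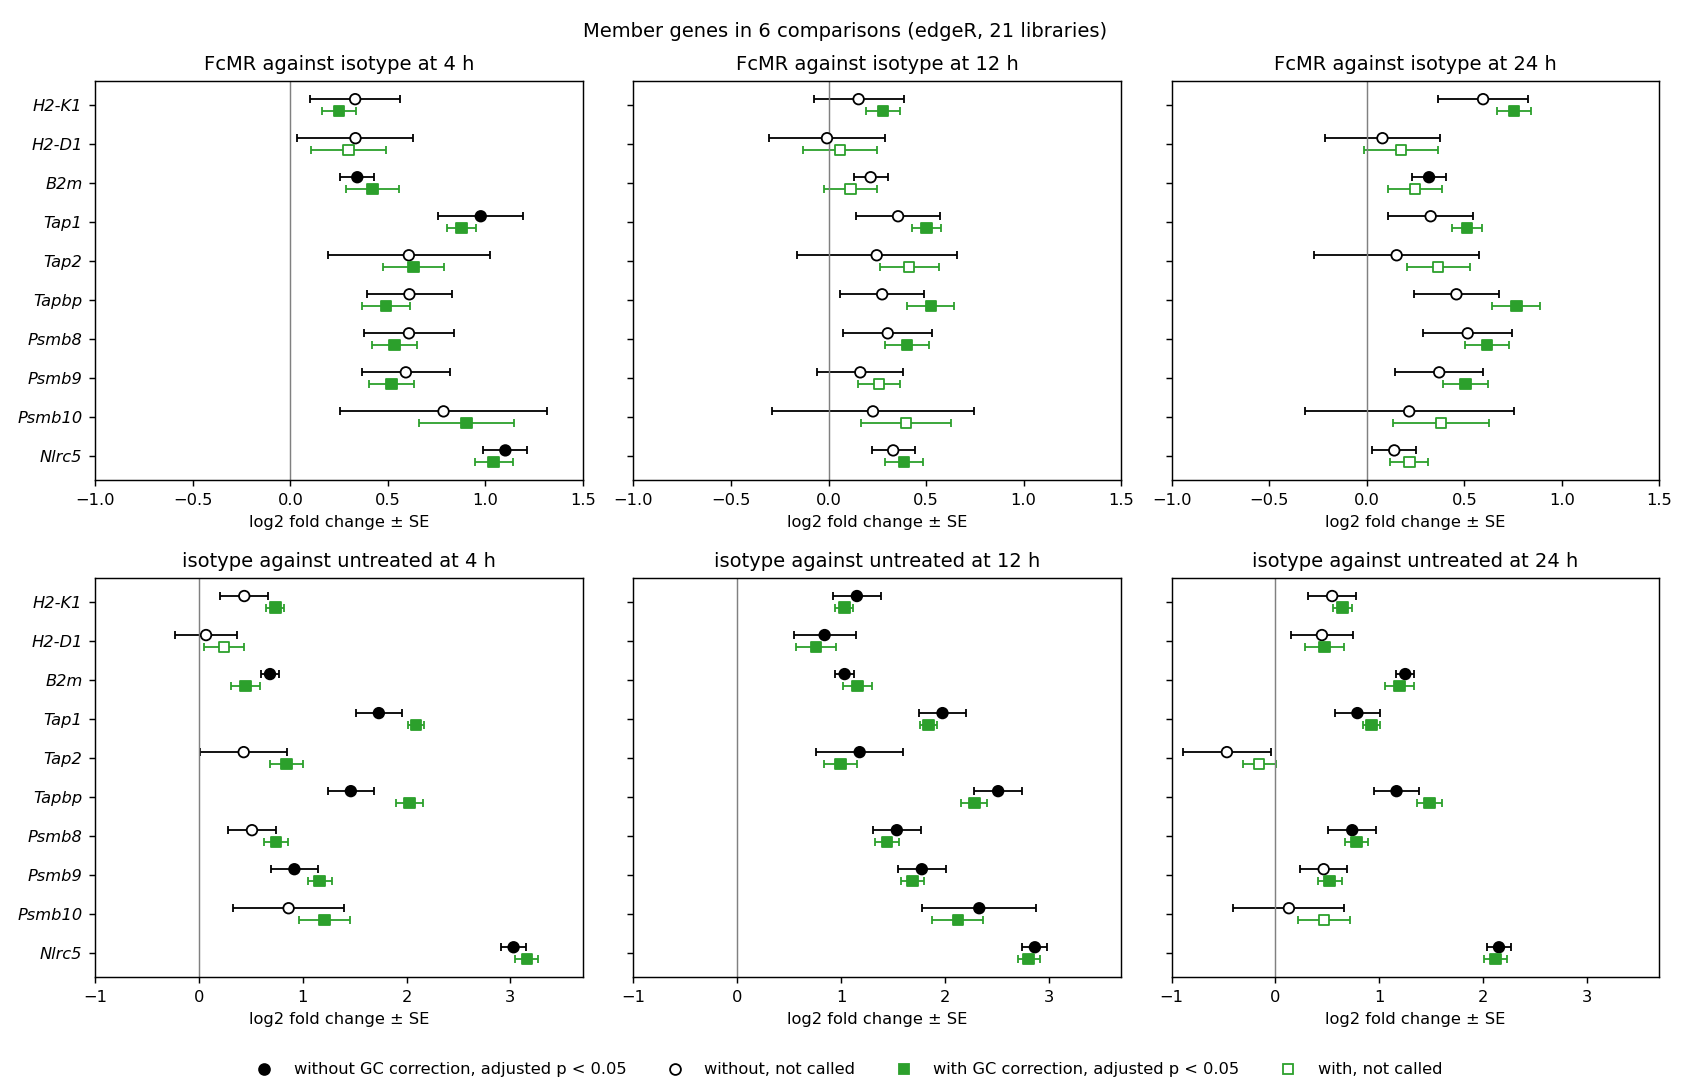
Log2 fold change ± SE of the 10 genes in 6 comparisons, as deposited (circles) and with the GC correction (squares), filled where the edgeR adjusted p was under 0.05. The corrected errors are smaller for all but B2m, and 9 squares against 3 circles are filled for FcMR against isotype at 4 h. Some values moved as well, such as Tapbp from 1.46 to 2.03 and Tap2 from 0.43 to 0.84 for isotype against untreated at 4 h.

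Nlrc5, the transactivator (ENSMUSG00000074151.13, chromosome 8, 94434356 to 94527272), had the largest change of the 10 genes from untreated to isotype at each time and from isotype to FcMR at 4 h when all 21 libraries were used. The 3 untreated libraries held 19.04, 22.4 and 15.3 CPM. At 4 h isotype libraries held 172, 132 and 161 CPM and FcMR libraries 316, 350 and 332 CPM. At 12 h isotype libraries held 148, 132 and 136 CPM and FcMR libraries 175, 178 and 170.5 CPM, and at 24 h 80.5, 87.7 and 85.2 CPM against 96.8, 87.1 and 95.7 CPM. The groups were apart at 4 and 12 h, with FcMR above, and overlapped at 24 h. Against untreated cells the isotype group was 8.17-fold higher at 4 h, 7.3-fold at 12 h and 4.45-fold at 24 h (adjusted p = 2.83e-12, 4.41e-12 and 1.69e-10). FcMR raised Nlrc5 2.15-fold over isotype at 4 h (log2 1.10 ± 0.11 SE, adjusted p = 2.86e-06), a call kept in all 16 alternatives tried. At 12 h the difference was 0.33 ± 0.11 (adjusted p = 0.0507, and 0.0049 with the GC correction) and at 24 h 0.14 ± 0.11 (0.444). The FcMR effect on Nlrc5 differed over the 3 times (joint test, adjusted p = 0.00119), where 11% of all genes were called and no other member was. The joint test also called Tap1 when isotype 4 h replicate 3 was left out (adjusted p = 0.0153). Without both libraries out of title order it called Tap1 (0.00384) and Tapbp (0.0441). Calls over all genes rose from 1484 to 2294 and 2616 in these 2 settings. For Nlrc5 the joint adjusted p was 0.143 with the per-gene factors of the authors' second table. Ordered by mean, untreated (18.9) was lowest and FcMR 4 h (333) highest. Isotype 12 h, isotype 4 h and FcMR 12 h between them were neighbours that overlapped in that order, as were isotype and FcMR at 24 h.

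Tap1, one chain of the peptide pump (ENSMUSG00000037321.17, chromosome 17, 34187553 to 34197225), followed a similar course. Untreated libraries held 75.4, 56.1 and 56.5 CPM. At 4 h the isotype libraries held 176, 149.7 and 298 CPM and the FcMR libraries 409.8, 430.0 and 387 CPM, so FcMR was above isotype in every library. The highest isotype value is that of replicate 3, the library out of title order. FcMR raised Tap1 1.97-fold at 4 h (0.98 ± 0.22, adjusted p = 0.00393, and 0.88 ± 0.08 with the GC correction). Without both libraries out of title order the difference was 1.33. Fitting only the 2 groups compared gave adjusted p = 0.06. At 12 h FcMR libraries held 225, 364 and 358 CPM against 238, 263.5 and 238 CPM, an overlap made by FcMR replicate 1, the second library out of title order. The 12 h difference was 0.36 ± 0.21 (adjusted p = 0.328), and 0.50 ± 0.08 with the GC correction (adjusted p = 4.41e-05). At 24 h FcMR libraries held 134, 113 and 161 CPM and isotype libraries 109, 107 and 108 CPM, apart but not called (0.33 ± 0.22, adjusted p = 0.341). With the correction the 24 h difference was 0.51 ± 0.08 (adjusted p = 3.7e-05). FcMR 4 h (409 CPM) was separate from the next group in order, FcMR 12 h (316 CPM). Reads from Tap1 and Psmb9 cannot be told apart where their models overlap, since the library kit is not stated to keep the strand.

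Tap2, its partner in the pump (ENSMUSG00000024339.12, chromosome 17, 34203527 to 34216321), varied too much within groups for any call between FcMR and isotype as deposited. Its isotype 4 h libraries held 67.5, 39.0 and 167.5 CPM, a 4.3-fold range, and its FcMR 4 h libraries 137, 153 and 129 CPM. The difference at 4 h was 0.61 ± 0.42 (adjusted p = 0.358) and became 0.63 ± 0.16 (adjusted p = 0.00505) with the GC correction. Without isotype 4 h replicate 3 it was 1.395 (adjusted p = 0.0139). Isotype at 12 h was 2.27-fold above untreated (adjusted p = 0.031). By 24 h both groups had lower means than untreated cells (49.3 ± 1.2 CPM with isotype, 55.2 ± 19.2 with FcMR and 68.4 ± 22.4 untreated, SD, n = 3), and the isotype difference of -0.47 ± 0.42 was not called (adjusted p = 0.395).

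Tapbp, which encodes tapasin (ENSMUSG00000024308.14, chromosome 17, 33915899 to 33929292), had the largest isotype change at 12 h of the pump and loading genes. Its level rose from 154 ± 19 CPM in untreated cells to 424 ± 169 and 880.2 ± 57.6 with isotype at 4 and 12 h, and was 346 ± 12 at 24 h (SD, n = 3). Against untreated cells these isotype levels were 2.76-fold, 5.71-fold and 2.25-fold higher (adjusted p = 5e-05, 9.08e-08 and 0.000347). FcMR libraries held 660, 689 and 595 CPM at 4 h against 362, 295 and 616 CPM. Only the isotype replicate out of title order reached into the FcMR range, and the difference of 0.61 ± 0.22 was not called (adjusted p = 0.0629). It was 0.98 without that replicate (adjusted p = 0.00114) and 0.74 without FcMR 4 h replicate 3 (0.042). At 24 h FcMR libraries (425 to 525 CPM) were above isotype libraries (336 to 359 CPM), again without a call (0.46 ± 0.22, adjusted p = 0.16). With the GC correction FcMR was above isotype by 0.49, 0.52 and 0.77 at 4, 12 and 24 h, all called (adjusted p = 0.0049, 0.00283 and 6.85e-05). The correction moved FcMR 24 h replicate 2 (tilt -1.32) from the lowest of its group (424.5 CPM) to the highest (774.5 CPM). The SD of that group rose from 50.1 to 151.5 CPM, so the corrected 24 h value leans on this library. The annotated body of Tapbp overlaps Zbtb22, and those of Tap2, Psmb8, Psmb10 and Nlrc5 each overlap a gene without a known protein, so reads in the shared parts cannot be told apart.

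B2m, the light chain (ENSMUSG00000060802.8, chromosome 2, 122147686 to 122153083), went up without the later decline of the other genes. Untreated libraries held 1970, 2166 and 2075 CPM. Isotype libraries reached 3033, 3446 and 3503 CPM at 4 h, 4217, 3976 and 4539 CPM at 12 h and 4877, 4737 and 5166 CPM at 24 h. FcMR libraries held 4633, 4218 and 3811 CPM, then 5067, 4734 and 4985 CPM, then 5916, 6706 and 5819 CPM at the same times. At each time all FcMR libraries were above all isotype libraries as deposited. On GC-adjusted values the groups overlapped at 4 and 12 h and were apart at 24 h. Isotype was 1.61-fold, 2.05-fold and 2.38-fold above untreated at 4, 12 and 24 h (adjusted p = 7.27e-06, 3.59e-08 and 3.5e-09). FcMR over isotype was 1.27-fold at 4 h (0.34 ± 0.09, adjusted p = 0.0104), 1.16-fold at 12 h (0.22 ± 0.09, 0.112) and 1.25-fold at 24 h (0.32 ± 0.09, 0.0132). The 4 h call was lost without FcMR 4 h replicate 1 (adjusted p = 0.0673) or isotype 4 h replicate 1 (0.0526), and in the 2 groups compared alone (0.134). The 24 h call was lost without FcMR 24 h replicate 2 (0.0647) or isotype 24 h replicate 2 (0.0546), without a filter on low counts (0.0541) and in the 2 groups compared alone (0.0752). It was also lost with the GC correction (0.25 ± 0.14, 0.193), which widened the spread of this GC-poor gene, and with the GC correction and a replicate block (0.156). As deposited, B2m was the only member whose highest group was FcMR 24 h (6147 ± 487 CPM, SD, n = 3), and that group was separate from the next. On GC-adjusted values H2-K1 was also highest in FcMR 24 h (mean 2513 CPM). B2m in FcMR 24 h (5209 to 6793 CPM) then overlapped FcMR 12 h (4398 to 5869 CPM). The GC-corrected FcMR difference of B2m was 0.42 ± 0.14 at 4 h (adjusted p = 0.0264) and 0.11 ± 0.14 at 12 h (0.636). B2m shares bases with Patl2 on the opposite strand.

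H2-K1, a classical heavy chain (ENSMUSG00000061232.15, chromosome 17, 33996017 to 34000347), was at 885 to 1159 CPM in untreated libraries. Isotype libraries held 1265, 927 and 2042 CPM at 4 h, 2048, 2334 and 2577 CPM at 12 h and 1475, 1535 and 1562 CPM at 24 h. FcMR libraries held 1651, 1901 and 1781 CPM, then 1823, 2973 and 2947 CPM, then 2360, 1821 and 2731 CPM. The groups overlapped at 4 and 12 h and were apart at 24 h. The 4 h difference was 0.33 ± 0.23 (adjusted p = 0.367), and 0.70 without isotype 4 h replicate 3 (adjusted p = 0.0207). The 12 h difference was 0.15 ± 0.23 (adjusted p = 0.764). With the GC correction both were called, at 0.25 and 0.28 (adjusted p = 0.036 and 0.022). Isotype at 12 h was 2.22-fold above untreated (adjusted p = 0.000662). At 24 h FcMR was 1.51-fold above isotype, not called as deposited (0.60 ± 0.23, adjusted p = 0.0804) and called with the GC correction (0.75 ± 0.09, adjusted p = 1.47e-06). The GC-corrected joint test over the 3 times called H2-K1 (adjusted p = 0.00727) and Tap1 (0.0207) beside Nlrc5 (0.000466), where 23.5% of all genes were called.

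H2-D1, the other classical heavy chain (ENSMUSG00000073411.11, chromosome 17, 35262730 to 35267499), showed no FcMR difference that was called in all 21 libraries, with or without the GC correction. FcMR minus isotype came to 0.33 ± 0.30, then -0.01 ± 0.30, then 0.08 ± 0.30 at the 3 times (adjusted p = 0.504, 0.993 and 0.899). The 4 h difference was 0.84 and called without isotype 4 h replicate 3 (adjusted p = 0.0279) and without both libraries out of title order (0.0047), and 0.63 with the GC correction as well (0.0005). At 24 h the FcMR libraries held 2483, 1779 and 3124 CPM and the isotype libraries 2268, 2301 and 2415 CPM. The isotype values lay inside the FcMR range. Isotype at 12 h was 1.79-fold above untreated (adjusted p = 0.0312). H2-K1 and H2-D1 are close copies of each other and of the Q-region genes, so estimated counts can move between them and their separate values are uncertain.

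Psmb8, which encodes the subunit that replaces Psmb5 (ENSMUSG00000024338.14, chromosome 17, 34197721 to 34201454), had a mean of 109 ± 5 CPM without treatment. Isotype libraries held 102 to 212 CPM at 4 h, 296 to 339.9 CPM at 12 h and 172 to 197 CPM at 24 h, and FcMR libraries 214 to 258 CPM, 305 to 457 CPM and 174 to 347 CPM. At 4 h every FcMR library was above every isotype library. The FcMR difference was 0.61 ± 0.23, 0.30 ± 0.23 and 0.52 ± 0.23 at 4, 12 and 24 h, with no call (adjusted p = 0.0794, 0.465 and 0.131). Without isotype 4 h replicate 3 the 4 h difference was 0.91 (adjusted p = 0.00947). With the GC correction all 3 were called, at 0.53, 0.40 and 0.62. Isotype was 2.9-fold above untreated at 12 h and 1.67-fold at 24 h (adjusted p = 3.85e-05 and 0.0153), and the 24 h call was lost without untreated replicate 3 (0.0533).

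Psmb9, whose product replaces Psmb6 (ENSMUSG00000096727.2, chromosome 17, 34181987 to 34187764), stood at 43.4 ± 8.1 CPM untreated and 149 ± 7 CPM with isotype at 12 h (SD, n = 3), a 3.43-fold rise (adjusted p = 6.16e-06). At 24 h the isotype libraries had come down to 59.0 to 61.0 CPM, below the FcMR range of 65.6 to 94.4 CPM. The FcMR difference was 0.59 ± 0.22, 0.16 ± 0.22 and 0.37 ± 0.23, not called (adjusted p = 0.0796, 0.736 and 0.293), while at 4 h it was 0.97 without isotype 4 h replicate 3 (adjusted p = 0.00206). The corrected values were 0.52, 0.26 and 0.51, called at 4 and 24 h. The log2 levels of Tap1 and Psmb9 correlated at r = 0.913 over 21 libraries, which also share the GC tilt.

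Psmb10, which takes the place of Psmb7 (ENSMUSG00000031897.9, chromosome 8, 105935735 to 105938444), had the widest spread. Its isotype 4 h libraries held 53.1, 20.6 and 164 CPM, a 7.98-fold range. FcMR 4 h libraries held 122 to 150 CPM, inside that range. At 12 h FcMR libraries held 118, 331 and 328 CPM and isotype libraries 198, 218 and 248 CPM. The outlying values are again those of isotype 4 h replicate 3 and FcMR 12 h replicate 1. Isotype was 5.04-fold above untreated at 12 h (adjusted p = 0.0023) and 1.09-fold at 24 h (0.87). FcMR differed from isotype by 0.79 ± 0.53, 0.23 ± 0.52 and 0.22 ± 0.54 (adjusted p = 0.349, 0.857 and 0.843). The 4 h difference was 1.899 without isotype 4 h replicate 3 (adjusted p = 0.00978). Only the 4 h difference was called with the GC correction (0.90 ± 0.24, adjusted p = 0.00852).

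The exchange of constitutive for immune subunits was described as count ratios within each library, set to 1 at the untreated mean. Psmb9 over Psmb6 was 1.61 ± 0.12 with isotype and 1.62 ± 0.07 with FcMR at 4 h, 2.18 ± 0.12 and 2.14 ± 0.09 at 12 h, and 1.43 ± 0.07 and 1.57 ± 0.2 at 24 h (SD, n = 3). The isotype and FcMR ranges overlapped at all 3 times. Psmb8 over Psmb5 was 1.32 ± 0.35 with isotype and 1.65 ± 0.15 with FcMR at 4 h, 1.31 ± 0.12 and 1.67 ± 0.39 at 12 h, and 1.14 ± 0.07 and 1.6 ± 0.17 at 24 h. The groups overlapped at 4 and 12 h, and with the GC correction FcMR was above isotype there too (1.33 to 1.61 against 0.98 to 1.18, and 1.52 to 1.77 against 1.323 to 1.502). At 24 h every FcMR library (1.42 to 1.75) was above every isotype library (1.05 to 1.19), also with the GC correction (1.29 to 1.38 against 0.947 to 1.07). Psmb10 over Psmb7 pairs transcripts of 58.3% and 43.1% GC and moved most with the tilt. It was 1.27 ± 1.29 with isotype and 1.96 ± 0.23 with FcMR at 4 h, 3.62 ± 0.31 and 3.43 ± 1.76 at 12 h, and 0.863 ± 0.107 and 0.691 ± 0.413 at 24 h. The GC-corrected groups were apart at 4 h, with 0.934 to 2.46 for isotype and 2.81 to 3.3 for FcMR. The corrected isotype means were 2.95 at 12 h and 1.145 at 24 h, the last above the untreated mean and not below it. No test was made of these ratios.

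**Figure D4:**
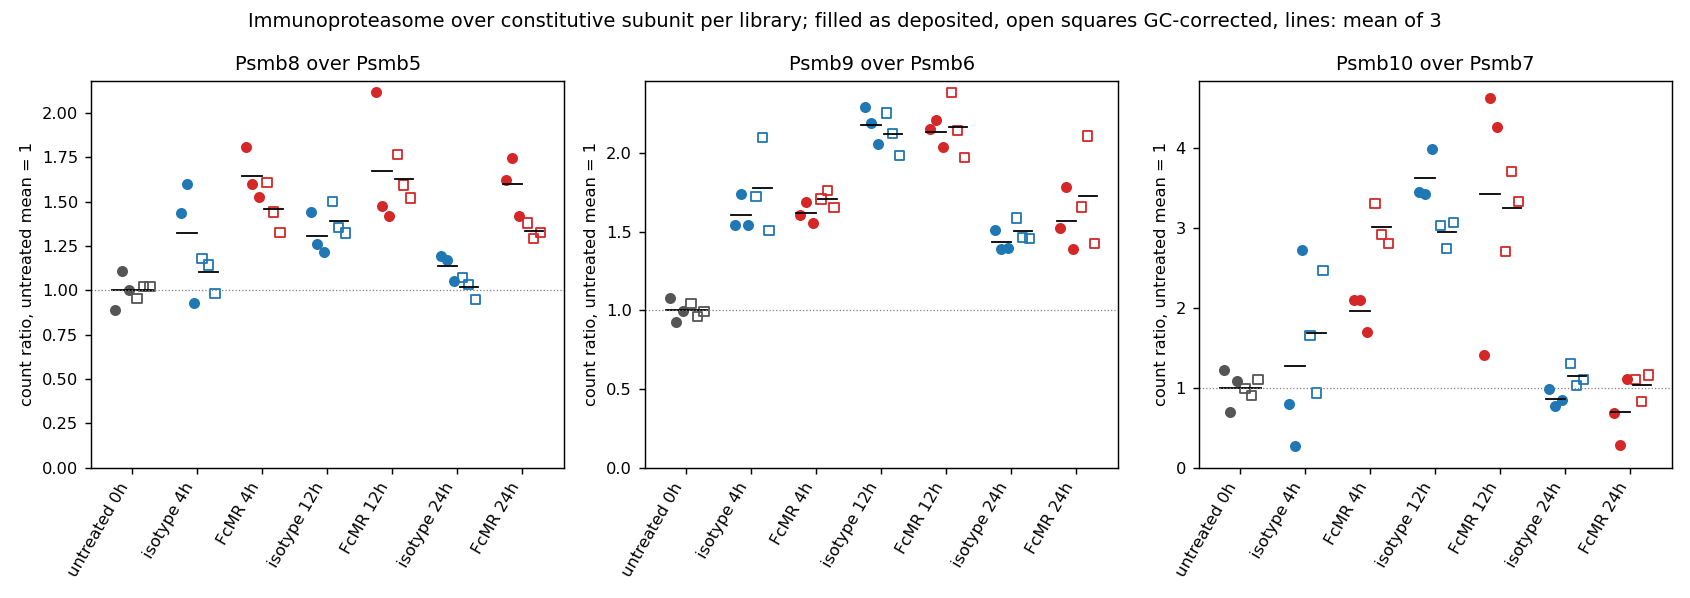
Ratio of counts of each immunoproteasome subunit to its constitutive counterpart per library, with the untreated mean set to 1; filled points are as deposited, open squares GC-corrected, and lines the mean of 3 libraries. Psmb9 over Psmb6 peaks at about the same height with isotype and FcMR at 12 h (2.18 and 2.14), while Psmb8 over Psmb5 is apart at 24 h.

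Of the constitutive counterparts, Psmb5 and Psmb6 were not called between FcMR and isotype as deposited. Their differences at 4, 12 and 24 h were 0.13, 0.02 and 0.07 for Psmb5, and 0.56, 0.19 and 0.28 for Psmb6. With the GC correction Psmb6 was called at 4 h (0.53, adjusted p = 0.0375), and Psmb5 at no time. Psmb7 rose with FcMR at 12 h (0.35, adjusted p = 0.017) and 24 h (0.61, 0.000129). Of 19 genes of the constitutive core and its assembly factors, 1, 4 and 8 were called higher and 1, 0 and 0 lower at the 3 times, where 8.62%, 8.61% and 11.4% of all genes were called higher. GC-corrected, 3, 8 and 10 were called higher and 1, 0 and 0 lower (14.1%, 13.2% and 17.5% of all genes higher). Psma5, an outer-ring subunit, had the highest value at 24 h (0.79 ± 0.09, adjusted p = 2.41e-06), while the assembly chaperones Psmg3 and Psmg2 had the lowest (-0.36 and -0.06, not called). Psme2, which with Psme1 builds the PA28 activator that caps immunoproteasomes, was higher with FcMR at all 3 times (0.44 ± 0.11, 0.57 ± 0.11 and 0.94 ± 0.11, adjusted p = 0.00723, 0.00097 and 3.94e-06). Its level was 552 CPM with FcMR and 287 CPM with isotype at 24 h. Psme1 was called at 24 h (0.61 ± 0.13, adjusted p = 0.00273). The nuclear activator Psme3 and the PA200 gene Psme4 were not called as deposited (0.10 and 0.34 at 24 h). With the GC correction Psme4 was called at 4 h (0.15, adjusted p = 0.0488) and 24 h (0.23, 0.00261).

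Among 12 tested non-classical class I heavy chains and class I-like genes beside H2-K1 and H2-D1, 4 rose and 1 fell with FcMR at 4 h, and 8 rose and 0 fell at both 12 and 24 h, beside 8.62%, 8.61% and 11.4% of all genes called higher at 4, 12 and 24 h. Their median change was 0.31, 0.62 and 1.05 at the 3 times, and the GC-corrected counts were 5, 9 and 8 higher and 1, 1 and 0 lower (14.1%, 13.2% and 17.5% of all genes higher). H2-M2 was the highest of them at 24 h, with 3280 ± 443 CPM against 819 ± 51 CPM with isotype (SD, n = 3), or 2.0 ± 0.12 on the log2 scale (adjusted p = 1.51e-09). It had differed by 0.56 at 4 h and 0.69 at 12 h, both called. H2-Q6, whose promoter window holds the GGGGATTCCCC run, was at 289 CPM against 79.8 CPM at 24 h (1.86 ± 0.17, adjusted p = 3.09e-07) and was not called at 4 h (-0.08 ± 0.17). The 2 lowest at 24 h were H2-Q10 (-0.41) and H2-T24 (-0.10), neither called. H2-T23, which encodes Qa-1, the ligand of the natural killer receptor NKG2A, was not called at any time (0.26, 0.07 and 0.19). At 24 h H2-K1 and H2-D1 had 0.60 and 0.08 in the same fit. Of the 16 listed genes, H2-Q1, H2-Q2 and H2-T3 were below the filter and H2-T9 was not matched. Counts within the Q and T families can move between near-identical genes.

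**Figure D5:**
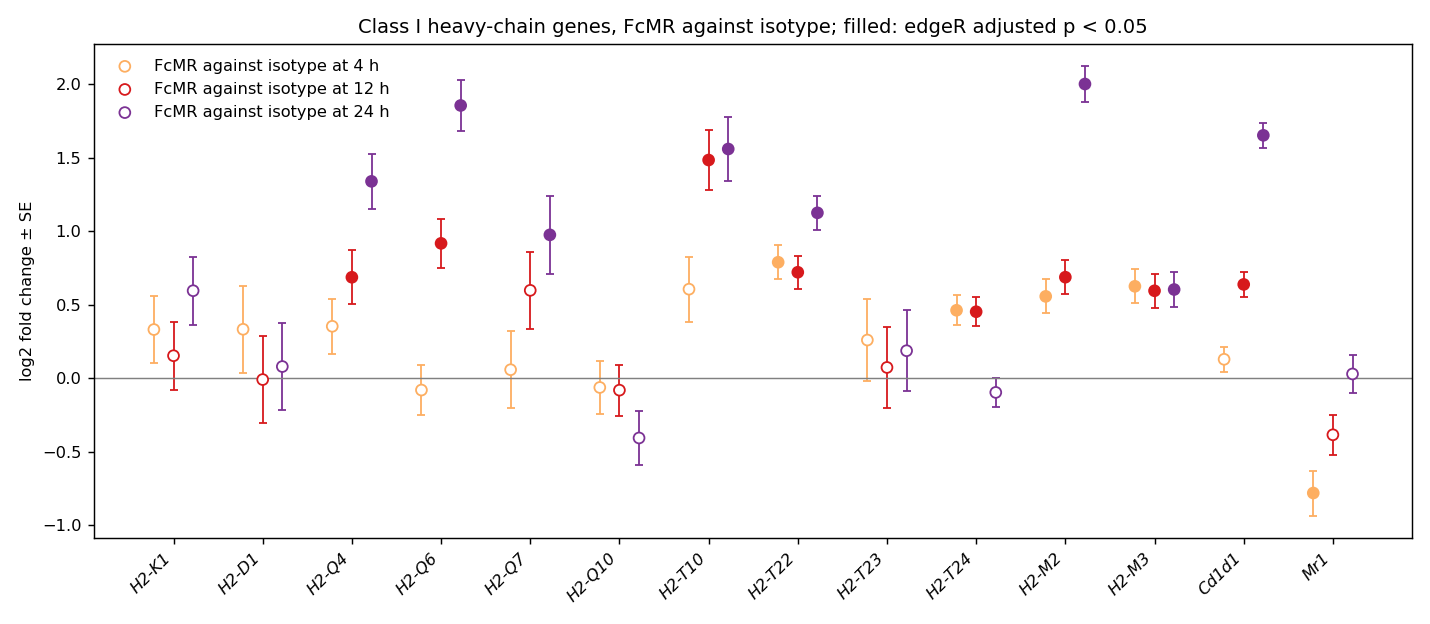
Log2 fold change ± SE of FcMR against isotype at 4, 12 and 24 h for H2-K1, H2-D1 and 12 other class I or class I-like heavy-chain genes, filled where the edgeR adjusted p was under 0.05. H2-M2 and H2-Q6 reach about 2 at 24 h, while H2-D1 and H2-T23 stay within 0.33 of 0.

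Of 11 genes of peptide loading and trimming, 2, 1 and 3 rose and 0, 0 and 1 fell with FcMR at 4, 12 and 24 h, beside 8.62%, 8.61% and 11.4% of all genes called higher. After GC correction 4, 3 and 5 rose and 0, 0 and 1 fell (14.1%, 13.2% and 17.5% higher over all genes). Tapbpl, the tapasin-related peptide editor, rose at 4 and 24 h (0.71 and 0.64, adjusted p = 0.00352 and 0.00641). Lap3, a leucine aminopeptidase, rose at 4 h (0.85 ± 0.08, adjusted p = 1.91e-06) and was lower at 24 h (-0.38 ± 0.08, 0.00299). Sppl2a, an intramembrane protease, rose at 12 and 24 h (0.54 and 0.56), and Blmh, a cytosolic hydrolase, was not called (0.05 at 24 h).

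Of 12 transcription factors known to act on class I genes, 7, 4 and 5 rose and 0, 0 and 1 fell with FcMR at the 3 times, when 8.62%, 8.61% and 11.4% of all genes were called higher. The GC-corrected counts were 9, 7 and 7 higher and 0, 0 and 1 lower (14.1%, 13.2% and 17.5% of all genes higher). Irf1, an activator of class I promoters, differed by 0.79, 0.61 and 0.55 at the 3 times, all called, though its isotype level was back at 91.7 CPM by 24 h against 93.9 CPM untreated. Irf2 rose at 4 h (0.55) and fell at 24 h (-0.27, adjusted p = 0.018), and Rfxank was not called. Rfx5, part of the complex through which NLRC5 reaches DNA, was higher with FcMR at 12 h (0.50) and 24 h (0.89 ± 0.13, adjusted p = 4.63e-05). Ciita, the class II counterpart of Nlrc5, was at 111 CPM untreated and 24.8 CPM with isotype at 24 h (-2.16 ± 0.24, adjusted p = 1.06e-06), where Nlrc5 was 4.45-fold above untreated. FcMR against isotype gave Ciita 0.71 ± 0.24 at 24 h (adjusted p = 0.0415).

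The list of inhibitory and stress molecules read beside class I holds ligands and also the receptors Pirb and Lilrb4a. It had 8 tested genes, of which 0, 2 and 1 rose and 0, 0 and 1 fell (8.62%, 8.61% and 11.4% of all genes higher). On GC-corrected levels 2, 2 and 2 rose and 0, 1 and 1 fell (14.1%, 13.2% and 17.5% higher over all genes). Cd47, the signal that restrains engulfment, rose at 12 and 24 h (0.47 and 0.44, adjusted p = 0.022 and 0.0261). Ulbp1, a ligand of the activating receptor NKG2D, was lower with FcMR at 24 h (-0.61 ± 0.17, adjusted p = 0.0158). Raet1e (0.30) and Lilrb4a (-0.35) were not called at 24 h, and H60c was below the filter. The isotype median of 1.66 at 12 h for the 10 members stands beside 1.23 for the heavy-chain list, 0.57 for peptide loading, 0.37 for the constitutive proteasome and 0.65 for the transcription factors.

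Across the 7 group means the members did not all follow 1 course. The log2 profiles of H2-K1 and Psmb8 correlated at r = 0.977, Tapbp and Psmb9 at 0.975, Tap2 and Psmb10 at 0.957 and Tap1 and Nlrc5 at 0.948. B2m correlated with Tap2 at 0.0613. Over 21 libraries the non-member genes whose log2 profile was most like the mean profile of the members were Fscn1, which encodes the actin bundler fascin (r = 0.991), Agrn (0.982), Cpne2 (0.973), Exoc3l4 (0.966), Arhgef40 (0.963) and Hvcn1 (0.963). Their transcripts hold 55.0% to 59.0% GC, like the members, and the libraries share the tilt. On GC-adjusted values the closest were Apol7b (0.981), Agrn (0.979), Gng12 (0.975), Fscn1 (0.974), Ppfibp2 (0.966) and Apol7a (0.963), so Fscn1 and Agrn were named both ways. Closest to Nlrc5 were Gm49342 (0.994) and Stat2 (0.991). These r values are descriptions over libraries of 7 groups.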

How the data were processed

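The authors deposited gene-level estimated counts and a second table of normalized expression, a signal that equals the first table divided by a factor per gene and library. The submitters' processing notes name CASAVA 1.8.2, kallisto 0.44.0, DESeq2 and the build mm10/GRCm38 without saying which step each did. Per the labels' protocols, 100 ng of total RNA went into a TruSeq RNA kit and was read as 75 bp single ends. Estimated counts were already whole, so rounding changed none.

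Symbols, positions and transcript GC content came from GENCODE M21 (GRCm38), which matched 23187 of 23250 gene IDs without their version. The members, the gene lists and the tests were chosen with earlier results of these data known. Genes were tested in 1 fit of 21 libraries by edgeR 4.0.16 (quasi-likelihood, under R 4.3.3), with TMM scaling and filterByExpr (13468 genes kept). Benjamini-Hochberg adjustment ran over all genes tested, and a gene was called at an adjusted p-value under 0.05. The joint test asks whether the FcMR minus isotype difference changes over the 3 times. CPM are TMM-scaled, and values are mean ± SD over 3 libraries. The GC correction adds, per library, a lowess trend (span 0.3) of log2 level against transcript GC as an offset, and 13440 tested genes had a GC value. The script was tested on simulated data. Named genes of each list are the 2 highest and 2 lowest by FcMR minus isotype at 24 h, plus genes fixed by name, of which 1 is not reported here.

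Totals differed 12.1-fold, so that 3 counts correspond to 0.045 to 0.542 CPM, and reads carry no molecular identifiers. Between replicates r of log2 CPM was 0.92 to 0.987, and no pair was as close as counting noise alone would make it (chi-square over its degrees of freedom was 3.09 or more). Alternatives were RLE factors, DESeq2 1.42.0, no filter, the authors' factors, the groups compared alone, a replicate block, each library left out, and the 2 libraries out of title order left out. The last together with the GC correction, and the most alike genes on GC-adjusted values, were added after the data had been seen.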

Additional observations from a re-analysis of the deposited data

Results flagged for a closer look

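Nlrc5 was singled out because its difference between FcMR and isotype was not the same at 4, 12 and 24 h. The joint edgeR test of that change gave an adjusted p of 0.00119, from log2 differences of 1.10, 0.33 and 0.14. With the GC correction the adjusted p was 0.000466, and with the authors' per-gene factors it was 0.143.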

How the results depend on the processing

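Of the alternative values of single genes and whole-table counts, 1154 kept direction and call, or for a count stayed close to the main fit. A further 144 became called, 23 lost their call, and 24 differed in sign, each of H2-D1, Tap2 or Psmb10 and none of them called in either fit. Another 19, all whole-table counts, moved away from the main fit. Of the alternative counts of members called, 82 stayed close to the main fit and 42 moved. Members called at 4, 12 and 24 h for FcMR against isotype were 3, 0 and 1, and changed to 6, 1 and 1 with RLE factors, 6, 2 and 2 with DESeq2, 6, 0 and 2 with the authors' factors, 9, 5 and 5 with the GC correction, 1, 1 and 2 in the groups compared alone, and 4, 0 and 0 without a filter. Without both libraries out of title order they were 10, 2 and 5, and with the GC correction as well 10, 8 and 7. Leaving out 1 library gave 2 to 10, 0 to 0 and 0 to 2. Counts of members called in this section have no share of all genes called higher beside them. They are not read as a result about the members.

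Isotype against untreated called 5, 10 and 5 members at 4, 12 and 24 h. The GC correction gave 9, 10 and 8. At 24 h the authors' factors, the groups compared alone and leaving out both libraries gave 8 each. Leaving out both libraries with the GC correction gave 8 at 4 h and 9 at 24 h, and leaving out 1 library 5 to 7, 8 to 10 and 4 to 5. The joint test called 1 member, 0 with the authors' factors, 3 with the GC correction, 3 without both libraries, 5 with both changes and 1 to 2 with 1 library left out.

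Libraries sharing a replicate number, each taken against its group mean, correlated at r = -0.166 to 0.338. With 3 libraries per group that differ in GC tilt, these values cannot decide whether the numbers mark pairs. Whether such libraries shared a mouse or culture was not tested. The replicate block gave 5, 0 and 1 members at 4, 12 and 24 h for FcMR against isotype and 5, 10 and 6 for isotype against untreated. The replicate block with GC correction gave 9, 5 and 5, then 9, 10 and 8, and 3 in the joint test.

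The H2-D1 difference of -0.01 between FcMR and isotype at 12 h became 0.0028 with RLE factors and 0.0028 with DESeq2, 0.019 without a filter, 0.063 with the authors' factors, 0.058 with the GC correction, 0.051 with the block and GC correction, 0.24 without both libraries and 0.24 with the GC correction as well, and -0.19 to 0.24 with 1 library left out. At 24 h leaving out FcMR 24 h replicate 3 gave -0.12 for H2-D1, -0.12 for Tap2 and -0.20 for Psmb10, and the ranges over single libraries were -0.12 to 0.27, -0.12 to 0.40 and -0.20 to 0.57. For isotype against untreated at 4 h, leaving out both libraries gave -0.44 for H2-D1, -0.34 for Tap2 and -0.23 for Psmb10, and leaving out single libraries gave -0.44 to 0.31, -0.35 to 0.75 and -0.24 to 1.27. H2-D1 was also -0.019 there without a filter and -0.079 without both libraries and with the GC correction. At 24 h Tap2 was 0.12 with the authors' factors, and Psmb10 was -0.068 to 0.33 with 1 library left out. The cause of these changes was not tested.

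Of all genes, FcMR against isotype called 2390 at 4 h, 3953 with the GC correction, 4078 with the block and GC correction, 868 in the groups compared alone, 3898 without both libraries, 4060 with the GC correction as well and 1589 without FcMR 4 h replicate 2. At 12 h 2169 became 3470 with the GC correction, 3651 with the block added and 3275 with the GC correction and without both libraries. At 24 h 2813 became 4300 with the block and GC correction and 4548 without both libraries and with it. Isotype against untreated at 4 h called 4792, and 2881 in the groups compared alone. The joint test called 1484, 925 without a filter, 3165 with the GC correction, 3350 with the block added, 2616 without both libraries, 3412 with both changes, 973 without FcMR 4 h replicate 2 and 2294 without isotype 4 h replicate 3.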
